A study of Homo sapiens with 16 samples.

Results

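H1437 is an established human lung adenocarcinoma cell line. It was described from the arrays labelled H1437 3D and H1437 2D, 2 of the 16 arrays of a study of 8 lung cancer lines. In 3D the untreated cells grew over a thin bed of Matrigel, a basement membrane extract, under medium holding 2% Matrigel, and in 2D they grew on plastic at like density and in like medium. The reference is the other 7 lines (A427, A549, H23, H358, H460, H661 and H1703), grown in the same cultures, which gave 7 3D and 7 2D arrays. Every line gave 1 array per culture, so a difference between the cultures within H1437 has no replicate check. Its mean over both cultures was compared with the means of the other lines, and its 3D minus 2D difference was compared with the same difference in each other line.

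The airway lining is kept moist and clean by secretory epithelial cells, which release mucins together with small trefoil peptides and BPI-fold proteins that coat the surface. Such cells load their endoplasmic reticulum (ER) with secreted protein and rely on ER chaperones to fold it. KEAP1 is the adaptor that marks the transcription factor NRF2 for destruction. When KEAP1 is lost or modified, NRF2 switches on genes for antioxidant and detoxifying enzymes, a state known from part of lung adenocarcinomas.

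Values are log2 ratios of each probe set to a reference of its own, so a difference of 1 between arrays is 2-fold, and the levels of different genes cannot be compared. A gene's value is the mean of its retained probe sets. The lowest ratio in the file is 0.01, and 298 values sit there, so a value of -6.644 is a bound. Array medians lay between -0.28 and -0.07, with -0.19 for H1437 3D and -0.21 for H1437 2D. Both arrays of H1437 correlated with r = 0.924 over genes, against 0.809 to 0.942 between the cultures of the other lines. Being arrays of bulk RNA, they cannot tell fewer cells with a transcript from less of it per cell.

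All 9 epithelial markers, among them CDH1, EPCAM and KRT7, lay above their reference in both H1437 arrays. Their summed log2 ratio was 45.0 in 3D and 45.1 in 2D, against a range of -31.2 to 49.1 over the 14 other arrays with a median of -1.52. The 5 mesenchymal markers summed to -11.8 in 3D and -9.86 in 2D, below the 14 other arrays at -4.31 to 10.95. Of 3 lung adenocarcinoma markers 0 lay above reference in both H1437 arrays, and 1 lay under it in both. Each value is relative to the other lines, so this does not say whether the markers are expressed. NKX2-1, the lung lineage factor, had -0.30 in 3D and -0.26 in 2D, against -0.53 to 5.41 in the other arrays, with a median of 0.38. None of the 4 measured neuroendocrine markers and 0 of the 5 fibroblast markers lay above reference in both arrays. Of 5 leukocyte markers CD14 (4.44 in 3D and 3.96 in 2D) and CD3D (1.57 and 0.08) did, while the defining PTPRC had -0.02 in both. Of 3 endothelial markers PECAM1 (0.53 and 0.49) and CDH5 (0.41 and 0.28) did.

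Promoters of genes described below are shown for 2 groups whose members were mostly higher in H1437 3D, ER chaperones and hypoxia genes. Each run is 250 bases upstream of the transcription start, 5′ to 3′ along the gene's strand, from RefSeq on GRCh38.p14. Capitals mark the ER stress element, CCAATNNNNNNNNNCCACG on either strand, in HSPA5 (chr9:125241344-125241593, minus strand), CRELD2 (chr22:49918384-49918633, plus strand) and CANX (chr5:179698679-179698928, plus strand), and the core of the hypoxia response element, ACGTG on either strand, in ANKRD37 (chr4:185396591-185396840, plus strand).
HSPA5: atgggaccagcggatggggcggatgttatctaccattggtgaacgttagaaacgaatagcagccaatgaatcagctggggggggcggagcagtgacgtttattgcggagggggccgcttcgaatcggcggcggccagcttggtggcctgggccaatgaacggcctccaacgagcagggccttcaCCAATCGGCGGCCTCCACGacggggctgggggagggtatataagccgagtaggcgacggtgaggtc
CRELD2: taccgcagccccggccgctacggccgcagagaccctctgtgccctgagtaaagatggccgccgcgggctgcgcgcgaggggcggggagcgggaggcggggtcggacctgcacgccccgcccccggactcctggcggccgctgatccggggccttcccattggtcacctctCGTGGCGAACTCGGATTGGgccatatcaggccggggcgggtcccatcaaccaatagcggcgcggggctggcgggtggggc
CANX: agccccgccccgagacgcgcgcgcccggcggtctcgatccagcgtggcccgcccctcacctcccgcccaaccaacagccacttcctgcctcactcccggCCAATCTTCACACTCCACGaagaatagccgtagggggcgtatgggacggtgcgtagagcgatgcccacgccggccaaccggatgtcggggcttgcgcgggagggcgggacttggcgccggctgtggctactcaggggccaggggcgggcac
ANKRD37: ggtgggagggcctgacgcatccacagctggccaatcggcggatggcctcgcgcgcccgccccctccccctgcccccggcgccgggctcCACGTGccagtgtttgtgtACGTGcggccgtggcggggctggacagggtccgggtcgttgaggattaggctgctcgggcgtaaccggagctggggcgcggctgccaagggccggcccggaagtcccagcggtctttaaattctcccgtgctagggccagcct
In CRELD2 the element reads on the opposite strand. In ANKRD37 the stretch CACGTG, which is also an E-box, holds the core on both strands, and a further copy follows it. The CCAAT end of the ER stress element is by itself the binding box of NF-Y. In windows of 250 bases before to 50 after the start, the ER stress element occurred in 6 of 21 ER chaperone promoters (28.6%), against 22 of 27305 promoters of all genes (0.0806%). The hypoxia core occurred in 13 of 26 hypoxia promoters, against 5900 of 27305 (21.6%). A match describes these letters and is no evidence of binding.

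Genes for secreted airway and mucosal proteins led the H1437 identity. Of 15949 genes, 162 were higher in H1437 than in the other lines (1.02%) and 25 lower (0.157%) at an adjusted p under 0.05 (limma, 1 line against 7, with H1437 assumed to vary like the others). All 187 genes called lay outside the range of the 14 other arrays in both H1437 arrays, as did 1189 genes above (7.46%) and 731 below (4.58%) over all genes. Of the 162, 80 were measured only by probe sets that are dim in most arrays. Genes measured only by dim probe sets were kept because of the arrays where they are high. Around a dim level the other lines then vary little, so calls and adjusted p-values of such genes support nothing. Of the genes named as highest this holds for AZGP1, S100A9, S100A14, ELAPOR1, BPIFA2, DSCAM-AS1, UGT1A6, BPIFA1 and C9orf152. A like limit holds for genes whose other 14 arrays stayed close to the reference, such as TFF3 (-0.14 to 0.16). It also covers genes named further below, among them SLC34A2 and VTCN1, whose other arrays lay near or under it. The shares over all genes, 7.46% above and 4.58% below, are the background for the list counts that follow. Differences below are H1437 minus the mean of the other lines, with the standard error from limma.

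AZGP1 on chromosome 7, a secreted zinc-binding glycoprotein, had 12.1 in H1437 3D and 11.3 in 2D, against -0.26 to 2.70 in the other 14 arrays with a median of -0.08. The difference was 11.45 ± 0.67 (adjusted p = 0.000164). TFF1 on chromosome 21, a trefoil peptide released with mucins, had 11.09 and 11.02, against -0.12 to 3.72 with a median of -0.03. That was 10.82 ± 0.70 higher (adjusted p = 0.000277), and the highest other array was A549 3D. TFF3, a related trefoil peptide, had 10.1 in 3D and 6.66 in 2D, while the other 14 arrays lay between -0.14 and 0.16. It differed by 8.36 ± 0.19. The means of the other lines had an SD of 0.063, so the standard error and call of TFF3 support nothing. For all 3 genes every H1437 array stood far above every other array.

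BPI-fold genes of chromosome 20, which encode secreted proteins of saliva and airway lining, formed a run in which each gene lay above all other arrays. BPIFA2 had 8.46 in 3D and 7.88 in 2D, against -0.78 to -0.01 in the others with a median of -0.56 (8.65 ± 0.24; adjusted p = 7.4e-06). BPIFA1 differed between the H1437 cultures, with 10.5 in 3D and 3.68 in 2D, and the highest other array was A549 3D at 3.46 (7.27 ± 0.69; adjusted p = 0.00245). BPIFB1 had 6.07 in 3D and 3.98 in 2D, and again A549 3D was next at 3.26. In 2D BPIFA1 and BPIFB1 thus cleared A549 3D by little, and in 3D by much. Against 2D arrays alone BPIFA1 in H1437 2D (3.68) stood far above the rest, which reached at most -0.47.

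Among 23 measured mucin and secretory genes the median difference was 3.56, against -0.06 over all genes. Above all other arrays lay 10 (43.5%, against 7.46% of all genes) and below them none. Called higher were TFF1, TFF3, BPIFA1, BPIFB1, MUC5AC, a gel-forming mucin (3.50 ± 0.42; adjusted p = 0.00778), and SPDEF, the transcription factor of secretory cells (2.07 ± 0.20; adjusted p = 0.0024). AGR2, an ER protein needed for mucin folding, lay above the others (6.61 in 3D and 6.24 in 2D, highest other 4.82) without passing the test (adjusted p = 0.742). CEACAM6, MUC5B and LCN2 lay within the range, with the highest other value in H358 3D for CEACAM6 (8.91) and in A549 3D for MUC5B (5.79) and LCN2 (6.10).

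Of the S100 and annexin genes 3 were called higher. S100A9 and S100A8, the subunits of calprotectin, were higher by 10.04 ± 0.91 (adjusted p = 0.0019) and 6.04 ± 0.71 (adjusted p = 0.00748). S100A14, another calcium-binding S100 protein, was higher by 9.74 ± 1.29 (adjusted p = 0.0134). S100P, with 9.43 in 3D and 9.61 in 2D, stood just above H358 3D at 8.83 and was not called. ANXA1, an annexin, had -4.11 in 3D and -2.73 in 2D, below the lowest other array at -1.07, without passing the test (adjusted p = 0.175). Of 23 S100 and annexin genes 6 lay above and 1 below all other arrays, and their median was 0.28.

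CES1, a carboxylesterase of drug metabolism, had 10.3 in 3D and 10.2 in 2D, against at most 2.92 in the other arrays (9.98 ± 0.86; adjusted p = 0.00145). ELAPOR1, an endosomal and lysosomal membrane protein, had 8.96 in 3D and 7.88 in 2D, against -0.87 to -0.13 in the others, with a median of -0.72 (9.09 ± 0.27; adjusted p = 7.4e-06). NUPR1, a stress-induced nuclear protein, had 8.81 in 3D and 8.94 in 2D, against at most 2.24. These 3 genes differed little between the H1437 cultures when set against their distance from the other lines.

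RBP4, the retinol carrier, had 10.3 in 3D and 7.90 in 2D, against -0.71 to 5.35 in the others. Its difference was 8.65 ± 1.31 (adjusted p = 0.0254), and the call was lost without A427, H23, H460, H661 or H1703 (adjusted p = 0.0565 to 0.0722). AQP3, a water and glycerol channel, had 8.79 in 3D and 7.82 in 2D, against at most 3.10 (7.92 ± 0.98; adjusted p = 0.00984). DSCAM-AS1, a long noncoding RNA known from oestrogen receptor positive breast cancer, had 8.14 in 3D and 6.49 in 2D, against -1.21 to -0.16 (8.35 ± 0.25; adjusted p = 7.4e-06). C9orf152 was higher by 6.95 ± 0.35 (adjusted p = 7.67e-05). For each of these 4 genes both H1437 arrays cleared all 14 others.

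**Figure D1:**
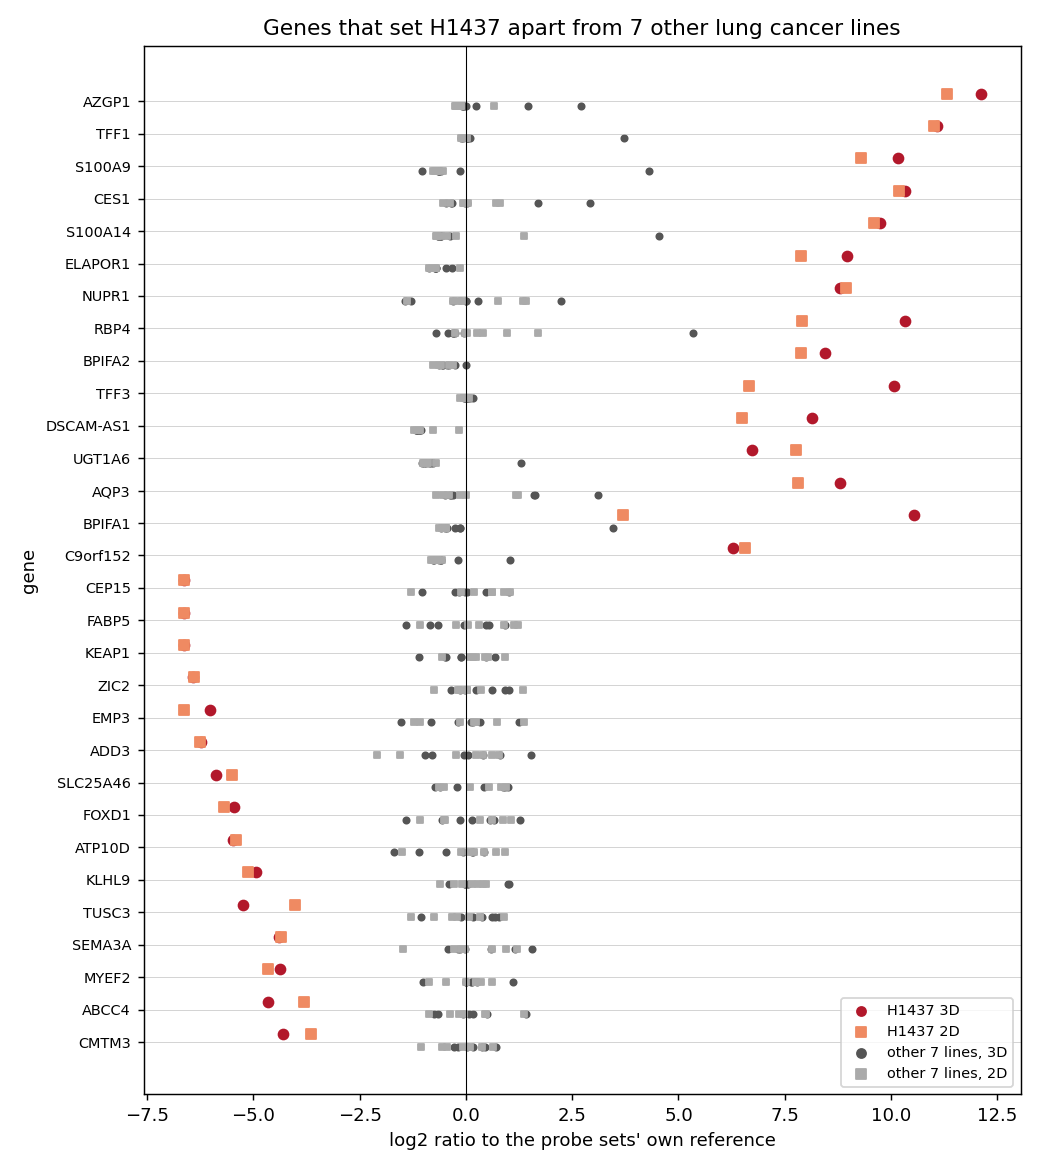
Log2 ratio to the probe sets' own reference (x axis) of the 15 genes named as highest and the 15 named as lowest in H1437 (y axis), for H1437 3D and 2D and the 3D and 2D arrays of the other 7 lines. The H1437 points lie apart from all 14 others in each gene, CEP15, FABP5 and KEAP1 sit at the lowest ratio of -6.644, and BPIFA1 in 2D (3.68) comes closest to another array (3.46).

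KEAP1, on chromosome 19, was among the genes called lower. Its probe set read the lowest ratio of -6.644 in both H1437 arrays, against -1.11 to 0.92 in the other 14 with a median of 0.13. It differed by -6.69 ± 0.53 (adjusted p = 0.000894), a bound, and no other line was near this value. CEP15, a centrosomal protein, and FABP5, a fatty acid carrier with near-identical copies in the genome, also sat at the lowest ratio in both arrays (adjusted p = 0.00287 and 0.00612).

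Genes that NRF2 is known to switch on were mostly higher in H1437, in part together with A549. Of 32 measured NRF2 genes the median difference was 1.98, 10 lay above all other arrays (31.2%, against 7.46% of all genes) and 1, KEAP1 itself, below. UGT1A6, which conjugates phenols and shares its last exons with other UGT1A genes, was the member called higher, with 6.72 in 3D and 7.76 in 2D, against -1.02 to 1.30 (7.997 ± 0.484; adjusted p = 0.000186). AKR1C2 had 10.8 in 3D and 10.7 in 2D, against a median of -0.57 and a highest value of 10.03 in A549 3D. AKR1C3 had 9.36 and 9.42, against a median of -2.25 and 9.12 in A549 3D. AKR1C1 had 9.37 and 9.10, against 6.74 in A549 3D. These aldo-keto reductases are near-identical copies that may share signal, and none passed the test (adjusted p = 0.608 for AKR1C1, 0.832 for AKR1C2 and 0.873 for AKR1C3). AKR1B10 lay within the range, with 11.3 in 3D and 11.6 in 2D, beside 11.7 in A549 3D. CBR3, a carbonyl reductase, and GCLM, a subunit of glutathione synthesis, lay above all others by 3.77 and 2.53 on average without being called.

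Xenobiotic and transport genes had a median difference of 2.23 over 25 genes, and of 1.10 without probe sets shared by several transcripts. ABCC4, an exporter of nucleotides and drugs, was the member called, and it was lower, with -4.67 in 3D and -3.81 in 2D, against -0.86 to 1.41 (difference -4.35 ± 0.66; adjusted p = 0.0249). The call was lost without A427, H23 or H1703 (adjusted p = 0.0616 to 0.0663). AHR, the receptor of dioxin-like ligands, and CYP1B1, its target, lay above all other arrays without being called.

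Other genes called lower have roles in development, membranes and the cytoskeleton. ZIC2, a developmental zinc-finger factor, had -6.42 in 3D and -6.40 in 2D, against -0.75 to 1.34 in the others with a median of 0.03 (-6.62 ± 0.53; adjusted p = 0.000894). EMP3, a small membrane protein, had -6.02 in 3D and the lowest ratio in 2D, against -1.52 to 1.36. ADD3, an adducin of the membrane skeleton, differed by -6.19 ± 0.94 (adjusted p = 0.0258) and SLC25A46, a mitochondrial outer membrane protein, by -5.86 ± 0.71 (adjusted p = 0.00845). FOXD1, a forkhead factor, differed by -5.67, ATP10D, a lipid flippase, by -5.30, and KLHL9, an adaptor of a ubiquitin ligase, by -5.18. TUSC3, a subunit of N-glycosylation, differed by -4.63, the axon guidance factor SEMA3A by -4.62, MYEF2 by -4.57 and CMTM3 by -3.998. Both H1437 arrays lay below all 14 others for each. ADD3 lost its call without A427, H23 or H460, FOXD1 without H23 or H1703, and SEMA3A without A427, A549, H460 or H1703 (adjusted p = 0.0512 to 0.0911). MYEF2 differed by -0.88 when represented by the probe set with the highest mean, against -4.57 over its 5 probe sets.

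Epithelial and mesenchymal genes lay on opposite sides. Of 30 epithelial junction genes the median difference was 2.70, with 8 above all other arrays and 0 below, and MARVELD3, a tight junction protein, was called higher (4.09 ± 0.66; adjusted p = 0.0354). PRSS8, an epithelial membrane protease, had 6.71 in 3D and 6.05 in 2D, against a median of -1.21 and a highest value of 5.42 in H358 3D. CDH1, EPCAM and ESRP1 lay within the range, with H358 3D highest at 6.93, 4.37 and 8.49. Of 27 mesenchymal genes the median was -1.52, or -1.05 without H661, and 0 lay above and 4 below all other arrays. VIM, the intermediate filament of mesenchymal cells, had -4.89 in 3D and -4.64 in 2D, against -2.49 to 1.42 in the others. ZEB1, a repressor of epithelial genes, had -4.47 and -3.99, against -3.93 to 1.72. Neither passed the test (adjusted p = 0.165 and 0.503), and none of the 27 did.

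The median of lung lineage genes lay near that of all genes, while some members were higher. Of 19 measured, the median difference was -0.02, against -0.06 over all genes. Above all other arrays lay 5 (26.3%, against 7.46% of all genes) and below them 0 (against 4.58%). SLC34A2, the phosphate transporter of alveolar type II cells, had 5.81 in 3D and 5.45 in 2D, against -0.51 to -0.02 in the other arrays (5.94 ± 0.20). It was called, but every other array lay under its reference, so the call supports nothing. SCGB3A1, a secretoglobin of airway cells, had 1.94 in 3D and 0.56 in 2D, against -0.31 to 0.20. FOXA1, a pioneer factor of endoderm, had 6.20 and 5.77, against at most 4.59, and was not called.

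Over 34 mitosis genes the median difference between H1437 and the other lines was -0.92, against -0.06 over all genes, with 0 above and 8 below all other arrays, and none was called. Some members, such as CDK1 (0.38) and PRC1 (0.32), had positive differences within the range. CDC20, the activator of the anaphase ligase, had -2.29 in 3D and -2.16 in 2D, against -1.83 to 1.17 in the others with a median of 0.11 (adjusted p = 0.426). CCNB1, the mitotic cyclin, had -1.73 and -1.39, against -0.96 to 0.67 (adjusted p = 0.191).

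Single members of other lists were called as well. FGA, a fibrinogen chain, had 6.93 in 3D and 6.14 in 2D, against at most 4.12 (6.62 ± 0.91; adjusted p = 0.0166), while FGB and FGG, with differences of 9.69 and 10.09, were not called (adjusted p = 0.0619 and 0.409), with A549 3D next at 7.56 and 8.53. VTCN1, an inhibitory ligand of T cells, had 4.82 in 3D and 6.07 in 2D, against -0.83 to 0.04 (6.04 ± 0.22). No other array rose clearly above its reference, so the call of VTCN1 supports nothing. POU2F3, the factor of tuft cells, was higher by 2.35 ± 0.23 (adjusted p = 0.00287), and PROM1, a membrane protein used as a stem cell marker, by 1.85 ± 0.32 (adjusted p = 0.0456). TGFB1, the ligand of its pathway, had -3.36 in 3D and -3.30 in 2D, against -1.32 to 0.96 (-3.34 ± 0.58; adjusted p = 0.0464). RET, a receptor tyrosine kinase for GDNF-family ligands, was higher by 2.68 ± 0.40 (adjusted p = 0.0229). Each of FGA, VTCN1, POU2F3, PROM1, TGFB1 and RET lay outside the range of the 14 other arrays.

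**Figure D2:**
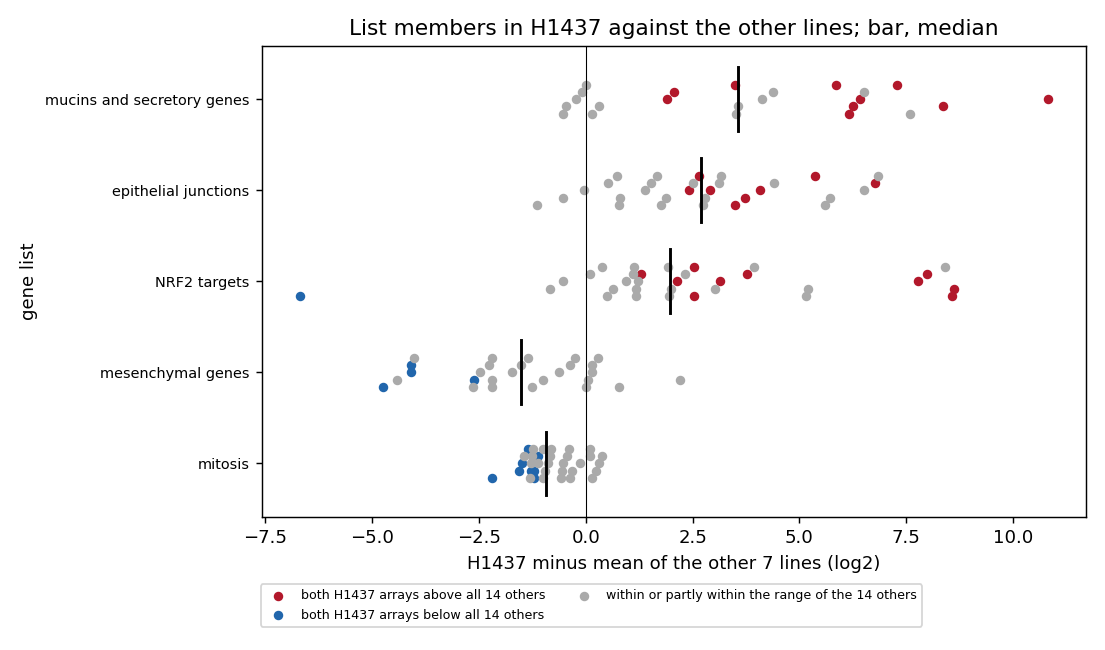
H1437 minus the mean of the other 7 lines (log2, x axis) for each measured member of 5 gene lists (y axis). Red points lie above and blue points below all 14 other arrays in both H1437 arrays, grey points do not, and the bar is the list median, 3.56 for mucins and secretory genes, 2.70 for epithelial junctions, 1.98 for NRF2 targets, -1.52 for mesenchymal genes and -0.92 for mitosis.

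The log2 ratios of H1437, averaged over both cultures, were most like those of H358 (r = 0.316 over genes) and least like those of H1703 (r = -0.284). All lines share the reference of each probe set, so the values are descriptive. When the highest other line was taken for each of the 162 genes, A549 and H358 were named 43 times each and H661 6 times.

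The 3D minus 2D difference of H1437 was of middling size among the lines. Its SD over 14113 genes was 0.451, against 0.310 in A427 to 0.558 in H661. At least 2-fold differences were seen in 539 genes, 294 up (2.08%) and 245 down (1.74%), against 153 in A427 to 1053 in H661. H1437 lay above the range of the other 7 lines in 2647 genes (18.8%) and below it in 1511 (10.7%). Against the other lines 4 genes rose in H1437 (0.0283%) and 1 fell (0.00709%) at an adjusted p under 0.05 (limma, difference of differences, 1 line against 7). At an unadjusted p under 0.05 there were 1057.

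Among these 5 genes TFF3 had the largest excess over the other lines. It had 10.1 in H1437 3D and 6.66 in 2D, a difference of 3.41, while the other lines differed by 0.01 to 0.16. Its excess over their mean was 3.35 ± 0.17 (adjusted p = 0.00018). RET had 4.30 in 3D and 1.05 in 2D, a difference of 3.25, against -0.12 to 0.39 in the other lines (excess 3.15 ± 0.24; adjusted p = 0.00157). BPIFB2, a BPI-fold gene of the chromosome 20 run, had 3.43 in 3D and 0.69 in 2D, against differences of -0.06 to 0.28 (excess 2.69 ± 0.19; adjusted p = 0.00157). These 3 calls held on leaving out any other line, but not all 3 held with the probe set of highest mean. In each of them 1 unreplicated H1437 difference was set against lines that differed little. Leaving out 1 such line can change little. For TFF3 the SD over the other lines was 0.048, so its call supports nothing. IGFBP5 and MATN2, also called, were chosen for naming after their values were seen. IGFBP5, a secreted binding protein of insulin-like growth factors, had 2.18 in 3D and 0.19 in 2D, against differences of -0.36 to 0.19 (excess 2.05 ± 0.22; adjusted p = 0.0242). MATN2, a matrix protein, had 2.02 in 3D and 4.22 in 2D, against differences of -0.05 to 0.73 (-2.48 ± 0.30; adjusted p = 0.0426). IGFBP5 lost its call without A427, A549, H23, H358 or H460 (adjusted p = 0.0508 to 0.0758), and MATN2 without any line but H661 (0.0508 to 0.108).

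The 3D minus 2D difference was also listed for the genes called higher in H1437. Among the 162 called higher in H1437, 113 were higher in 3D, and 41 of them at least 2-fold (25.3%), against 2.33% of all 15949 genes. At least 2-fold lower were 9 (5.56%), against 1.83%. Their median difference was 0.42, against 0.03 over all genes. The fit on line means uses the 3D arrays, so these counts describe and do not test. BPIFA1 (10.5 in 3D and 3.68 in 2D), TFF3 and RBP4 were among them, whereas TFF1, CES1 and NUPR1 differed by 0.07, 0.12 and -0.13. With the wider filter, which adds genes measured only by dim probe sets, 20 genes passed the threshold as higher (0.125%) and 10 as lower (0.0627%). An added gene passed that filter through the arrays where it is high, and the other lines then vary little around a dim level, so these counts support nothing and the values are given as a description. The genes given from these were chosen after their values were seen. Among the 20 were ORM1 and CRISP3, both added by the wider filter. ORM1, an acute-phase carrier protein, had 5.87 in 3D and 2.40 in 2D (difference 3.47, others -0.01 to 0.35). CRISP3, a secreted cysteine-rich protein, had 4.737 and 1.602 (others -0.02 to 0.26). PTGS1, a prostaglandin synthase (7.68 and 5.90, others -0.27 to 0.29), was measured under both filters and passed only with the wider one. BHLHA15, which sets up the secretory machinery of exocrine cells, had 8.03 and 5.09, against differences of 0.04 to 0.84, and passed with that filter (adjusted p = 0.027) and not without it (adjusted p = 0.0527). Among the 10 were DEFB1, an epithelial defensin (-0.14 in 3D and 2.85 in 2D, others -0.54 to 0.16), TMEM255A (-0.04 and 3.35) and HAVCR1 (0.61 and 3.06).

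Other genes with the highest 3D minus 2D difference in H1437 lay above all 7 other lines without passing the test. PTPRN2, a phosphatase-like protein of secretory vesicles, had 3.37 in 3D and -0.45 in 2D, a difference of 3.81, against -0.44 to 2.10 in the others (adjusted p = 0.264, and 0.0219 without H460). SLC45A1, a sugar transporter, differed by 3.47, FMO5, a flavin monooxygenase, by 3.13, and STC1, a secreted hormone known from hypoxia, by 3.11. IGFBP3 differed by 3.04, the prostaglandin receptor PTGER4 by 2.96 and C16orf89 by 2.99, which was called without H358 (adjusted p = 0.0239). The highest other line had 2.71 for FMO5 and 2.44 for STC1, so these lay close to the range, and 2.07 for IGFBP3, 1.38 for PTGER4 and 1.56 for C16orf89.

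The lowest differences were also outside the range of the other lines and not called. SPP1, the secreted matrix protein osteopontin, had 0.20 in 3D and 4.82 in 2D, a difference of -4.62, against -2.79 in H661 to 0.66 (adjusted p = 0.304, and 0.00454 without H661). ANXA3, an annexin, had -0.53 in 3D and 3.62 in 2D (difference -4.15), against -2.002 to 0.900. HPGD, which degrades prostaglandins, had 0.13 in 3D and 3.44 in 2D (difference -3.31), against -0.05 to 1.57. PPP1R3C, a glycogen-targeting subunit, differed by -3.30 and was called without H661 (adjusted p = 0.0209). SPANXB1, of a family with near-identical copies, differed by -3.02, LBH by -2.86, IL18, an inflammatory cytokine, by -2.58 and MAP2K6, a p38 kinase activator, by -2.58. MOB3B and CYP3A5, a drug-metabolising enzyme, differed by -2.51 each, OTULINL by -2.48 and MAP2, a microtubule protein, by -2.47.

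**Figure D3:**
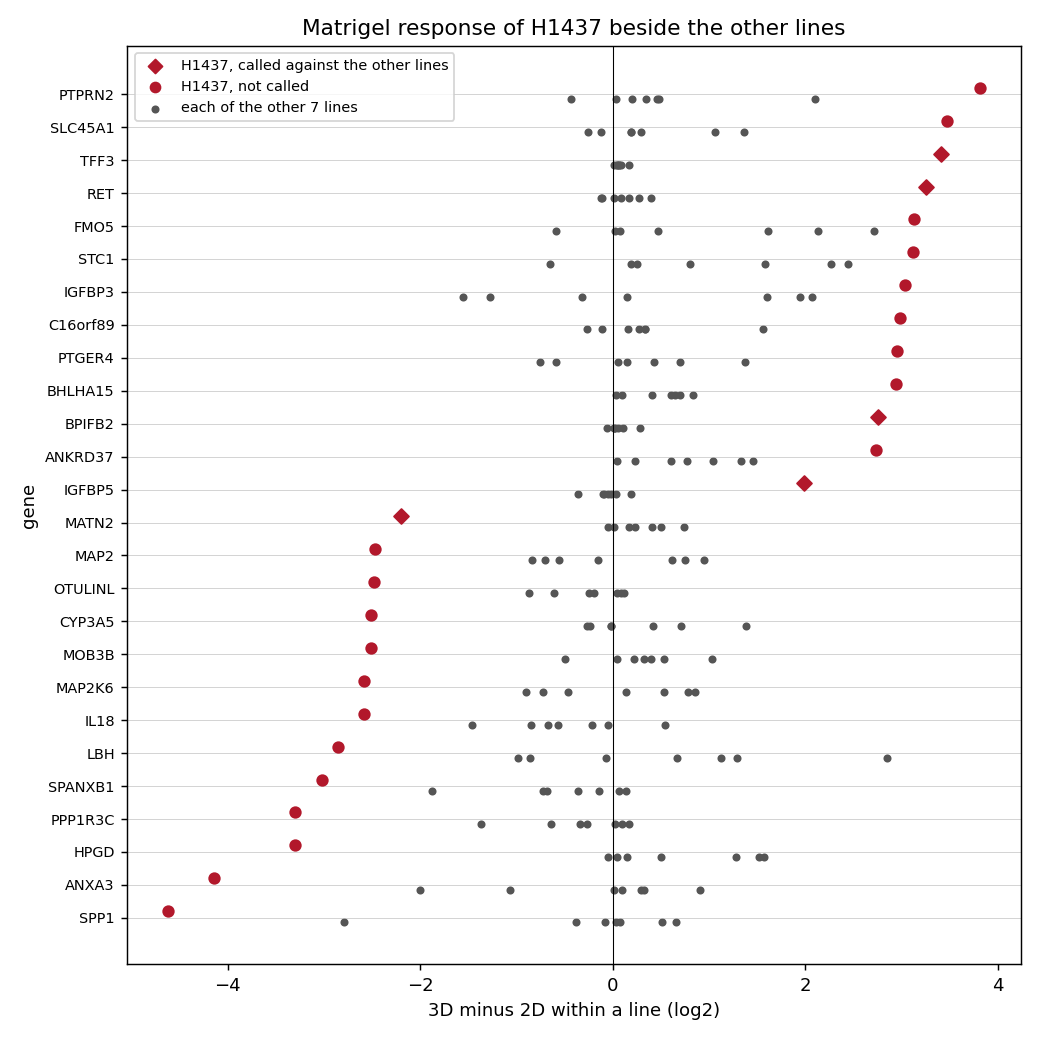
3D minus 2D difference within a line (log2, x axis) for the genes named for the H1437 response and the 5 genes called (y axis). Red marks H1437, diamonds for genes called against the other lines and circles for those not called, and grey points are the other 7 lines, which for TFF3 lie between 0.01 and 0.16 while H1437 is at 3.41.

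ER chaperone and unfolded protein response genes were higher in H1437 3D throughout. All 21 measured members were higher in 3D than in 2D, with a median difference of 0.47, against -0.38 to 0.36 over the other lines and 0.04 over all H1437 genes. H1437 lay above the range of the other lines in 10 of 21 members, against 18.8% of all genes. Its list median was above that of every other line under the other ways of normalising and choosing probe sets. None of the 21 was called against the other lines. DNAJB9, a co-chaperone that restrains the sensor IRE1, had 1.38 in 3D and -0.14 in 2D, a difference of 1.52, against -0.71 to 1.19 (adjusted p = 0.702). HSPA5, the main ER chaperone, had -0.03 and -1.09, and its difference of 1.06 lay below that of the highest other line at 1.30. CRELD2 differed by 0.87, against -0.59 to 0.59, and CANX, a lectin chaperone, by 0.27, against -0.79 to 0.05. These are 3 of the 6 promoters with the ER stress element, and of the other 3 HSP90B1 differed by 0.32, CALR by 0.33 and XBP1, the factor that drives this response, by 0.02. SDF2L1 and DNAJC3, which lack a match in that window, differed by 0.68 and 0.80 and lay above all other lines, most of which were negative.

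Hypoxia genes were higher in 3D as in the other lines. Of 31 members 27 were higher in H1437 3D, with a median of 0.75, against 0.28 in A427 to 0.75 in H460, and 8 were at least 2-fold higher. ANKRD37, whose promoter is shown above, had 3.75 in 3D and 1.01 in 2D, a difference of 2.74, against 0.05 to 1.46 in the other lines (adjusted p = 0.339). SPAG4 had 1.14 and -1.59, a difference of 2.73, against 0.53 to 2.10. NDRG1 (1.91) and BNIP3 (1.72), both known hypoxia targets, lay within the range of the others. DDIT4, an inhibitor of mTOR signalling, went the other way, with -1.499 in 3D and 0.195 in 2D, a difference of -1.69, against -1.002 to 0.746.

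ATF4 targets, genes of amino acid shortage, had a median of 0.12 over 31 members in H1437, against -1.30 to 0.07 in the other lines, and were within that range with other choices of probe sets. Ribosome biogenesis genes had a median of 0.15 over 23 members, against -0.70 to 0.12, and H1437 lay above the range in 9 (18.8% over all genes). Proteasome genes had -0.03 over 27 members, against -0.40 to -0.04, and H1437 lay above the range in 11 (18.8% over all genes). In these 3 lists the median of the other lines was negative (-0.41, -0.35 and -0.25), and none of their members was called.

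Immediate early genes, the first targets of growth signals, had a median of 0.55 over 19 members, against -0.21 to 0.49, and 0.15 without probe sets shared by several transcripts. That value lay within the range of the others, as did the one after quantile normalisation (0.42). FOSL2 had 1.53 in H1437 3D and 0.50 in 2D, a difference of 1.03, while all other lines were lower in 3D (-0.85 to -0.18; adjusted p = 0.159). FOSL1 differed by 1.62, against -2.58 to 0.95, and JUN by -1.11, against -0.97 to 0.49. Replication-dependent histone genes, near-identical copies, had a median of 0.72 over 12 members, against -0.67 to 0.47, and 0.28 without shared probe sets, again within the range. H2BC4 differed by 2.53, against -1.33 to 1.23. The medians of both groups thus fell when these probe sets were dropped, which over all genes also leaves fewer genes measured.

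Inflammatory genes gave single large differences. Over 22 chemokine and cytokine genes the median was 0.21, within the other lines (-0.61 to 0.92). H1437 lay above their range in 4 and below it in 2, against 18.8% and 10.7% of all genes. CCL20, a chemokine, had 0.35 in 3D and -3.03 in 2D, a difference of 3.38 that lay within the other lines (-0.87 to 3.84). ICAM1, an adhesion molecule, differed by 2.22, against -1.03 to 1.67, and NFKBIA, the inhibitor of NF-kappaB, by 1.45, against -0.68 to 0.81. Over 30 interferon genes the median was 0.27, within the other lines (-0.05 to 1.02), with 5 above and 5 below their range. Among those above, IRF9 differed by 1.94, against -0.32 to 1.35, and IFI6 by 1.39, against -0.91 to 0.11. None was called (adjusted p = 0.159 to 0.769). Among receptor kinases EPHA1 differed by 1.85, against -0.36 to 1.16, and ERBB2 by 0.83, against -0.51 to 0.36, beside the called RET.

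In H1437 6152 of all 14113 genes were lower in 3D. Of 18 S100 and annexin genes 14 were lower, with a median of -0.19, against -0.11 to 0.31 in the other lines. Below their range lay 8, against 10.7% of all genes. ANXA1 had -4.11 in 3D and -2.73 in 2D, a difference of -1.37, while all 7 other lines were higher in 3D (0.07 to 2.29; adjusted p = 0.386). Of 30 integrin and focal adhesion genes 17 were lower, with a median of -0.19, against -0.15 to 0.22, and 8 lay below the range (10.7% over all genes). With the probe set of highest mean the median was -0.13, within the range of the others (-0.21 to 0.21). ITGA6, a laminin-binding integrin subunit, had -5.07 in 3D and -2.86 in 2D, a difference of -2.21, against -0.86 to 0.90 (adjusted p = 0.446). Laminin is a main part of Matrigel.

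Of 18 cholesterol synthesis genes 16 were lower in H1437 3D, with a median of -0.42, against -0.53 in H1703 to 0.25. Below the range lay 7, against 10.7% of all genes. SQLE, an early enzyme of the sterol branch, had 1.42 in 3D and 2.18 in 2D, a difference of -0.75, against -0.52 to 0.87, and INSIG1, a sterol-regulated ER protein, differed by -0.66, against 0.00 to 1.90. Of 23 xenobiotic genes 10 were higher and 13 lower in H1437 3D, and 6 were at least 2-fold lower and none 2-fold higher. CYP3A5 had 0.41 in 3D and 2.93 in 2D, against differences of -0.27 to 1.38 in the others (adjusted p = 0.205). GSTP1, a glutathione transferase, had -1.59 and 0.01, against -0.53 to 0.09 (adjusted p = 0.158), and GSTA1 differed by -1.12, while all 7 other lines were slightly higher (0.00 to 0.56). Of 26 epithelial junction genes 13 were higher and 13 lower, with a median of 0.07, against -0.0042 to 0.46 in the other lines. Above the range lay 1 and below it 8, against 18.8% and 10.7% of all genes. The 3 that were at least 2-fold lower, CLDN1, OVOL1 and OCLN, differed by -2.19, -1.34 and -1.29, each below all other lines. None of the members of these lists was called.

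Proliferation genes were lower in 3D as in most lines. All 34 mitosis genes were lower in H1437 3D, with a median of -0.35, against -1.04 in H358 to 0.07 in A427, and none was 2-fold lower. Of 37 DNA replication genes 36 were lower, with a median of -0.41, against -0.80 to -0.22. H1437 lay above the range of the other lines in 1 of 34 mitosis genes and below it in 0, against 18.8% and 10.7% of all genes.

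**Figure D4:**
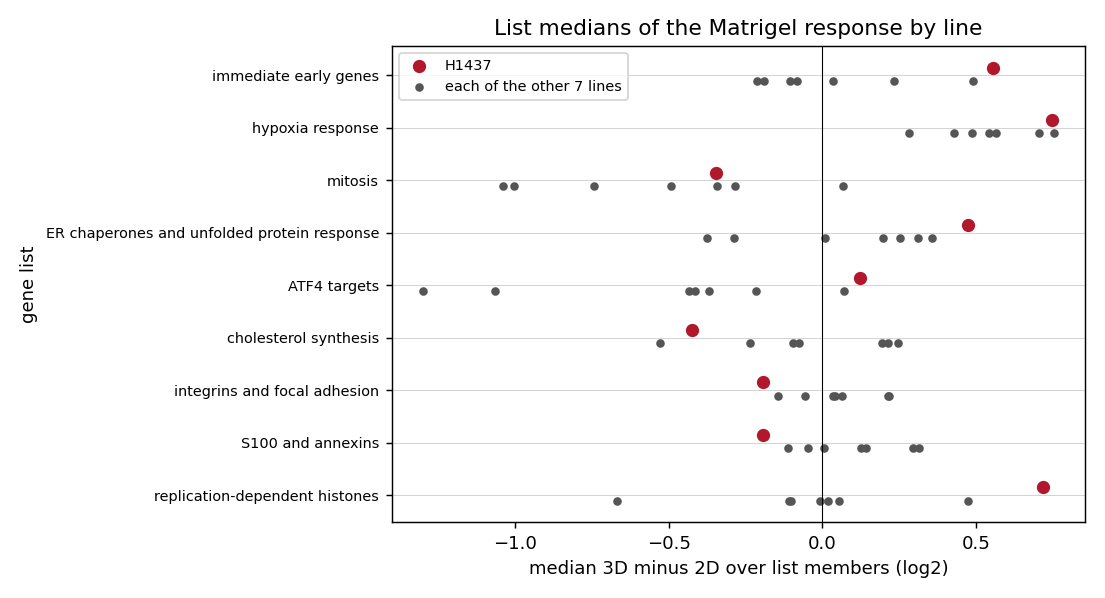
Median 3D minus 2D difference over the members of 9 gene lists (log2, x axis; lists on the y axis), red for H1437 and grey for each of the other 7 lines. H1437 lies above the other lines for ER chaperones (0.47), ATF4 targets (0.12), immediate early genes (0.55) and histones (0.72), below them for integrins and for S100 and annexins (both -0.19, integrins not with the probe set of highest mean), and among them for mitosis, hypoxia and cholesterol synthesis.

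The Matrigel response of the other 7 lines had the same sign in H1437 for most genes. Without H1437, 180 genes rose (1.28%) and 515 fell (3.65%) in 3D (limma on the 7 within-line differences against 0, adjusted p under 0.05). Of these 695 genes H1437 had the same sign in 498 (71.7%), with a median of 0.19 in the shared direction, against 0.51 for the mean of the other lines. The genes were chosen on the other lines, which raises that median. H1437 passed 2-fold in that direction in 42 genes and in the opposite one in 5. The calls rest on the whole set of lines. On leaving out A549, H23, H358, H460, H661 or H1703 the count was 0 (limma; 3012 to 3256 genes at an unadjusted p under 0.05), and without A427 it was 259 higher and 700 lower. With a variance trend in limma it was also 0 (3622 at an unadjusted p under 0.05).

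ARRDC4, an arrestin-like gene induced by glucose, differed by 2.33 in H1437, with 2.69 in 3D and 0.36 in 2D, and rose in the other lines by 2.12 ± 0.38 (SE, 7 lines; adjusted p = 0.0345 by limma). IFITM1, an interferon-induced membrane protein, differed by 1.45 in H1437, against a mean of 1.62 in the others, and BNIP3L, a mitophagy receptor, by 1.03, against 1.20. FAM162A (0.96 in H1437, 1.27 in the others) and CFAP96 (0.799 and 1.502) followed. These 5 lay within the range of the other lines. SPAG4 lay above the range, with 2.73 in H1437 and a mean of 1.24 in the others. SELENOP, a secreted selenium carrier, differed by 0.26 in H1437, below all other lines (0.31 to 3.11), and SLC2A10, a sugar transporter, by 0.26, against 0.01 to 2.66.

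The 8 genes named as lowest in the other lines were lower in H1437 3D by less. ALYREF, an mRNA export adaptor, differed by -0.28 in H1437, above all other lines (-2.37 to -0.38), and MRTO4, a ribosome assembly factor, by -0.56, against -2.28 to 0.08. STEEP1 differed by -0.93 (mean of the others -1.45), SMG1P5 by -0.41 (-1.39), GNL3L, a nucleolar GTPase, by -0.93 (-1.35) and HEATR3, a ribosomal protein carrier, by -0.995 (-1.28). RBBP5, a subunit of histone methyltransferases, differed by -0.62 (-1.22) and TRMT2B, an RNA methyltransferase, by -0.19 (-1.22). All 8 had a smaller size in H1437 than in the mean of the other lines. They were chosen for the lowest means in those lines, which makes those means large.

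The share was also counted in a way that treats every line alike, over genes with the same sign in all lines but the one described. H1437 had that sign in 64.5% of 1643 genes and A427 in 63.6% of 1665, against 77.0% in H661 to 87.0% in H358 for the rest. Under the other ways of processing and with lines left out H1437 had 60.7% to 65.9% and was lowest or next to A427 at the low end. Its response correlated over genes with those of the other lines by r = 0.0704 with H1703 to 0.258 with H358 (median 0.101), while the 21 pairs among the other lines had 0.0455 to 0.372 (median 0.244). The 18S rRNA probe sets of the array's controls differed by -0.08 between the H1437 cultures and by -0.13 in A427, against -3.45 in H23 to -0.81 in H358 for the others. The part of that signal in the lower share was not tested.

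**Figure D5:**
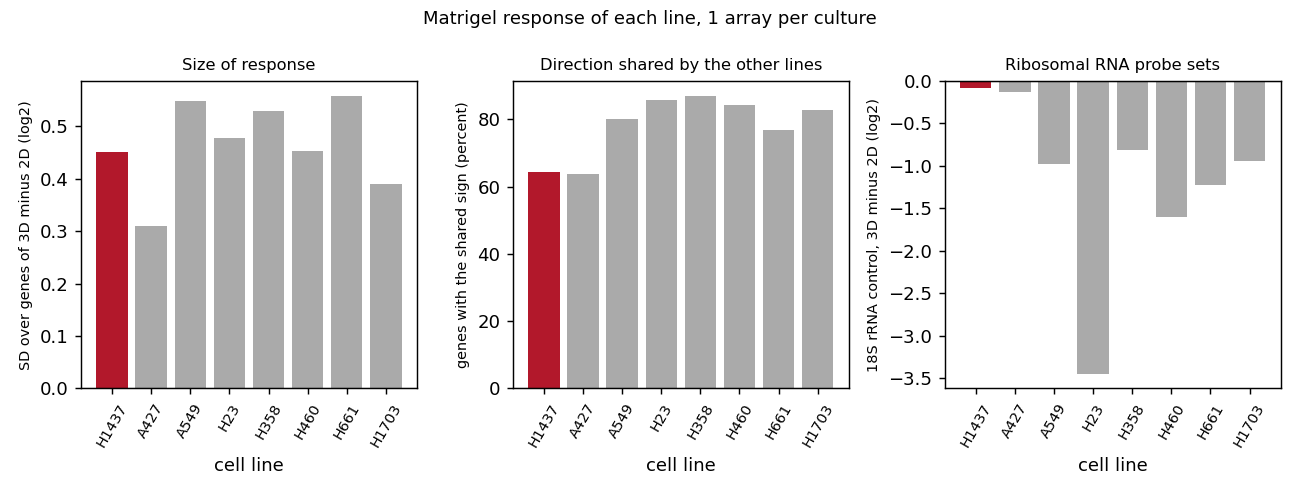
Bar plots over the 8 lines (x axis), H1437 in red and first, then the other 7 lines in grey, with 1 value per line and no error bars: the SD over genes of 3D minus 2D (log2), the percent of genes with the sign that all remaining lines share, and the 3D minus 2D difference of the 18S rRNA control probe sets (log2). H1437 is middling in the first (0.451), near A427 and below the rest in the second (64.5%) and closest to 0 in the last (-0.08).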

How the data were processed

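RNA from 8 lung cancer lines, each grown in 3D and in 2D, was measured on 16 Affymetrix U133 Plus 2.0 arrays (200 ng of RNA, per the labels' protocols). The deposited values are log2 ratios. The median of the arrays sits at the reference for 63.5% of 54675 probe sets and under it for the remaining 36.5%, and the lowest ratio is 0.01. How background was corrected and values normalised, and with which software and build, is not given in the sources used here, and the number of arrays limits the precision. Symbols came from the platform's annotation (41091 probe sets with 1 gene, 1801 with several, 11777 with none), checked against RefSeq.

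A gene's value was the mean of its retained probe sets, giving 15949 genes for the identity of H1437 and 14113 for the Matrigel response. limma 3.58.1 in R 4.3.3 (lmFit, eBayes) compared 1 line with 7, on line means and on 3D minus 2D differences, with Benjamini-Hochberg adjustment over all genes. The lone line was assumed to vary like the other 7, and without that model 1 line of 8 cannot reach a one-sided p below 0.125. Cultures were paired by the line their labels name. Nothing says that arrays came from separate cultures, so p-values measure the spread between lines. The fits were tested on simulated data. Figures used matplotlib 3.10.9.

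The members and the 54 gene lists were chosen with earlier results of these data known. Genes were named by rule: the 15 highest and lowest identity differences among called genes outside the other arrays' range, the 12 highest and lowest H1437 responses outside the other lines' range with an array at -1 or above, the 8 highest and lowest shared responses, and up to 4 per list. Other named genes, among them AGR2, AHR, AKR1C1, BNIP3, BPIFB1, CALR, CANX, CBR3, CDK1, ERBB2, FOSL2, GSTA1, HSP90B1, INSIG1, JUN, LCN2, MARVELD3, NFKBIA, PRC1, PROM1 and SPDEF, were chosen after their values were seen. Alternatives covered probe set choice, normalisation, filters, culture, the variance model and leaving out each line.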

Additional observations from a re-analysis of the deposited data

Results flagged for a closer look

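Single lines stood apart from the other 6 reference lines for 18 of 76 named values tested (Dixon's gap test for 7 values). The usual rate of about 1 in 20 does not apply here. The genes were chosen from these data, and for dim genes most lines sit close together, so the count shows no excess. In the mean of both cultures A549 stood apart for TFF1 (1.83), S100A9 (1.80), RBP4 (3.52), BPIFA1 (1.41), UGT1A6 (0.30), C9orf152 (0.15) and ELAPOR1 (-0.23). H358 stood apart for AZGP1 (1.68) and S100A14 (2.95), and H460 for DSCAM-AS1 (-0.64). In the 3D minus 2D difference H460 stood apart for PTPRN2 (2.10), H358 for C16orf89 (1.56) and SPANXB1 (-1.88), and H661 for SPP1 (-2.79). A427 stood apart for MRTO4 (0.0817), STEEP1 (-0.17) and RBBP5 (-0.32), and for the share of genes with the sign common to the remaining lines (63.6%).

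The Matrigel response of H1437 differed from that of the other lines, by limma's test of the difference, for TFF3 (3.35), RET (3.15), BPIFB2 (2.69), IGFBP5 (2.05) and MATN2 (-2.48). For TFF3 the other lines barely differed, so its call supports nothing.

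Probe sets without a gene symbol entered none of the fits above. Of 11721 such probe sets, the array's own control probe sets left out, 394 lay above all 14 other arrays in both H1437 arrays (3.36%), 26 of them by 4 or more on the log2 scale, and the highest difference was 8.64.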

How the results depend on the processing

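Identity calls numbered 162 higher and 25 lower. With only probe sets whose median is at the reference there were 62 and 16. The lower count was 13 with the probe set of highest mean and 13 after quantile normalisation. Leaving out 1 line gave 114 (without H1703) to 306 (without H358) higher and 16 to 50 lower, in the same order. Against the other lines the Matrigel response gave 4 genes higher and 1 lower. It gave 2 and 1 with the probe set of highest mean, 2 and 0 (limma; 827 genes at an unadjusted p under 0.05) with s and x probe sets (shared by transcripts) dropped, 7 and 3 with centred arrays, 20 and 10 with the wider filter, and 4 and 3 with a variance trend. Leaving out 1 line gave 3 to 4 higher and 0 to 3 lower (limma; 890 to 1151 at an unadjusted p under 0.05), with 3 lower only without H661. The response of the other lines gave 180 higher and 515 lower, 255 lower with s and x dropped, 0 and 0 with a variance trend (limma; 3622 at an unadjusted p under 0.05), and 0 to 259 higher and 0 to 700 lower on leaving out 1 line. Without the replicate block, that is without pairing cultures by line, it gave 0 higher and 1 lower (394 at an unadjusted p under 0.05).

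The identity median of mucins and secretory genes (3.56) was 4.14 with the probe set of highest mean, 4.26 with s and x dropped, 3.04 after quantile normalisation and 3.46 to 3.97 on leaving out 1 line. For mesenchymal genes (-1.52) leaving out 1 line gave -1.76 to -1.05. For xenobiotic genes (2.23) it was 1.10 under each choice of probe sets. Minus that of the other lines, the response median of histones was 0.31 with s and x dropped (0.72 otherwise), that of immediate early genes 0.21 (0.64) and that of S100 and annexins -0.49 after quantile normalisation (-0.32). Named genes kept their side of the threshold in 486 identity and 333 response values and lost it in 38 and 15, with 6 response values gained. The genes named for the response of the other lines kept their call in 101 values and lost it in 136. Of the named genes and list medians recomputed in these ways, none reversed. Most genes named only from the lists or after their values were seen were not recomputed, nor were the other list medians above. Of all called genes, 186 of 187 (identity) and 682 of 695 (other lines) kept their sign with the probe set of highest mean, and 148 of 149 and 525 of 531 with s and x dropped. The cause of each shift was not tested. Dim probe sets limit what could be measured.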

Other observations

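Genes that lay above or below all other arrays in H1437 stood beside each other at several places in the RefSeq order of genes on GRCh38.p14. On chromosome 20 BPIFB2, BPIFB4, BPIFA2, BPIFA1 and BPIFB1 formed a run above, with differences of 2.05 to 8.65. On chromosome 10 AKR1E2, AKR1C1, AKR1C2 and AKR1C3 did so (2.28 to 8.62), and on chromosome 21 TFF1, TMPRSS3, RSPH1 and SLC37A1 (1.42 to 10.82). Chromosome 16 held 5 runs of at least 4 genes, the longest with the 7 genes DNAJA2, NETO2, ITFG1, PHKB, ABCC11, LONP2 and SIAH1 (0.59 to 2.14). Runs below were PPM1K, HERC6, HERC5 and NAP1L5 on chromosome 4 (-4.67 to -2.90) and ZNF875, ZNF527, ZNF569 and ZNF570 on chromosome 19 (-3.33 to -0.27). No test was made of these runs.

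Chromosomes differed in the share of genes above all other arrays, with 97 of 519 on chromosome 15 (18.7%) and 126 of 707 on chromosome 16 (17.8%), against 7.46% of all genes. On chromosome 19, 99 of 1126 lay below all other arrays (8.79%), against 4.58% of all genes. On the short arm of chromosome 9, FOCAD (-3.00, adjusted p = 0.00996 by limma) and KLHL9 (-5.18, adjusted p = 0.0018) were called lower. MTAP (-2.77) and TUSC1 (-5.22) lay below all other arrays without being called. CDKN2A (-2.06) and CDKN2B (-2.32), between them in gene order, lay within the range but near its low end. CDKN2A had -1.84 in H1437 3D and -1.86 in 2D, against a lowest other array of -2.02. CDKN2B had -1.40 and -1.44, against -1.53.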
